A study of Mus musculus with 10 samples.

Results

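The comparison described here is the uterine response to estradiol (E2) in female offspring of CD-1 mouse dams given bisphenol A (BPA). It was taken by the array labels: 3 arrays of offspring injected with E2 against 3 arrays of offspring injected with its DMSO vehicle, all from BPA-exposed dams. These are 6 of the 10 arrays of the study, and probes were used where they were detected on at least 2 of the 10. CD-1 is an outbred stock, and BPA is a monomer of polycarbonate plastics that binds estrogen receptors. Dams of both groups received BPA intraperitoneally at 5 mg/kg per day over gestation days 9 to 21. All offspring were ovariectomised at 6 weeks, which removes the main source of their own estrogen. At 8 weeks the BPA-E2 group received 300 ng of E2 and the BPA-vehicle group received DMSO, and the uterus was taken 6 h later. Each array held total RNA of uteri pooled within a litter, and litters 1, 2 and 3 each gave 1 BPA-E2 and 1 BPA-vehicle array. The number of animals in a pool is not given in the sources used here. The other 4 arrays came from offspring of DMSO-treated dams, 2 with E2 and 2 with vehicle injection, and served to share the estimate of spread and to set the response after BPA against the response after DMSO.

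E2 enters uterine cells, binds the nuclear estrogen receptor (Esr1) and changes transcription, in the epithelium partly through growth factors released by the stroma. In the ovariectomised mouse uterus an E2 dose is known to switch on immediate early genes within the hour, then water uptake, ribosome assembly and protein synthesis, and later epithelial cell division and secretion. Lactoferrin (Ltf), an iron-binding secreted protein of the epithelium, is a textbook gene of the late, secretory part of that response.

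Expression is given as normalized log2 intensity, so a difference of 1 is a 2-fold change. Changes are BPA-E2 minus BPA-vehicle, as log2 change ± standard error from limma. Adjusted p-values are limma's after Benjamini-Hochberg adjustment over 16272 units, which were 12403 genes with a symbol and 3869 probes without one here. A gene was called at an adjusted p under 0.05. Precision is set by 3 arrays a group, and the p-values reflect the spread among litter pools. On the 6 arrays the median raw signal lay between 122 and 127, and 20233 to 21060 of 45281 probes were detected. Arrays of the BPA-E2 group correlated across genes at r = 0.994 and those of the BPA-vehicle group at 0.993 to 0.994, while r between the groups was 0.977 to 0.978. All 6 arrays lay on 1 slide, so slide does not separate E2 from vehicle here. By the letters in the array names, positions A to C held the BPA-E2 group and D to F the BPA-vehicle group. Position on the slide and injection thus cannot be told apart. All arrays of DMSO-treated dams lay on another slide, so slide and in utero exposure cannot be told apart.

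The labels were checked against a few genes that E2 is known to move, and this check was mixed. Ltf read 10.67, 10.69 and 10.58 on the BPA-E2 arrays, against 13.83, 13.82 and 13.76 on the BPA-vehicle arrays. By raw signal its probe ranked 2365, 2339 and 2523 of all probes on the BPA-E2 arrays, against 180, 181 and 194 on the BPA-vehicle arrays. Ltf was thus lower in every E2 pool (-3.16 ± 0.06, adjusted p = 3.39e-08), which is opposite to the direction known for this gene. With E2 after DMSO in utero Ltf did not pass either (limma adjusted p = 0.679). Its probe ranked 7 and 5 by raw signal on the vehicle arrays of DMSO-treated dams, so a rise there may not show. Greb1, an estrogen receptor cofactor and classical target, was also lower (-0.69 ± 0.07, adjusted p = 0.000148). The immediate early gene Egr1 (0.35 ± 0.06) and the vascular growth factor Vegfa (0.74 ± 0.10) rose, which is the known direction. The progesterone receptor Pgr (0.18 ± 0.10, adjusted p = 0.2) and Esr1 itself (-0.09 ± 0.16, adjusted p = 0.717) did not pass. Of the gene groups described below, 6 of 8 kallikrein 1 family genes were higher with E2 here, and 6 after DMSO in utero. The 3 tested peptidylarginine deiminases were lower with E2 here, while 2 were higher after DMSO in utero. Across genes the BPA-E2 arrays correlated at r = 0.971 to 0.972 with the E2 arrays of DMSO-treated dams and at 0.950 to 0.951 with their vehicle arrays. The BPA-vehicle arrays likewise correlated more with the E2 arrays of DMSO-treated dams (0.983 to 0.985) than with their vehicle arrays (0.971 to 0.973). The labels were kept as deposited.

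E2 was followed by a broad change in uterine RNA after BPA in utero. Of 16272 units, 2489 were called higher (15.3%) and 2236 lower (13.7%), so 29.0% passed in either direction. Counts of called members in the gene groups below are to be read against these shares. Large changes were mostly falls: 447 units were at least 2-fold lower (2.75%) and 179 at least 2-fold higher (1.10%), and at least 4-fold 83 were lower and 22 higher. Among called units the median log2 change was 0.46 for the higher ones and -0.57 for the lower ones, against 0.03 over all units tested. In 4718 of the 4725 called units the E2 array differed from its vehicle array in the same direction in all 3 litters. In 4702 the values of the groups did not overlap (46.0% of all units tested did not overlap). The calls rest on these same arrays, so both counts follow largely from the selection. Without background correction the counts of changes of at least 2-fold were 67 higher and 195 lower, so fold sizes depend on that step.

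The largest fall was that of Aoc1, which encodes diamine oxidase, the secreted enzyme that breaks down histamine and putrescine. Aoc1 read 6.07, 6.06 and 5.72 on the BPA-E2 arrays, against 12.26, 12.26 and 12.20 on the BPA-vehicle arrays. It was bright in every vehicle pool and dim in every E2 pool, and it fell 78.3-fold (-6.29 ± 0.10, adjusted p = 1.46e-08). Clca1, a secreted regulator of chloride channels made by mucous cells, read 7.75, 8.09 and 8.20 on the BPA-E2 arrays and 12.70, 12.74 and 12.70 on the BPA-vehicle arrays. Its vehicle values lay close together, and every E2 value lay far below them (-4.70 ± 0.11). Groups without overlap were a condition for being named among the largest falls. The phospholipid flippase Atp10b (-4.35 ± 0.19), detected on 1 of 3 BPA-E2 arrays, fell with it, as did the arginine-cleaving enzyme Arg1 (-4.15 ± 0.13) and the epithelial calcium channel Trpv6 (-3.84 ± 0.09). Arg1 read 6.89, 6.33 and 6.62 on the BPA-E2 arrays and 10.71, 10.85 and 10.72 on the BPA-vehicle arrays.

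Next in size were the falls of Oas2 (-3.81 ± 0.16) and Krt84 (-3.78 ± 0.12), which are described with their gene groups. Serpina9, a serine protease inhibitor, was not above background on any BPA-E2 array and was at least 8.60-fold lower. The ubiquitin ligase Rnf186 was likewise below background with E2 and at least 7.48-fold lower, and the secreted phospholipase Pla2g2e at least 4.74-fold lower. The membrane mucin Muc4 (-3.38 ± 0.13, detected on 1 of 3 BPA-E2 arrays), Hgfac, the protease that activates hepatocyte growth factor (-3.52 ± 0.09), the urate oxidase Uox (-3.14 ± 0.10) and the tetraspanin Tspan1 (-2.75 ± 0.10) followed. So did the angiopoietin-like Angptl7 (-2.81 ± 0.09), the versican-cleaving protease Adamts9 (-2.80 ± 0.15) and the adhesion receptor Adgrg7 (-2.70 ± 0.14).

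Among genes with a symbol the largest rises were smaller than the largest falls. Cxcl15, a chemokine made by mouse lung and uterine glands, read 9.78, 9.80 and 9.91 on the BPA-E2 arrays, against 7.69, 8.11 and 7.71 on the BPA-vehicle arrays (1.99 ± 0.12, adjusted p = 7.91e-06). Serpinb11, an intracellular member of the serpin family, read 9.74, 9.63 and 9.86 on the BPA-E2 arrays and 7.64, 7.76 and 7.88 on the BPA-vehicle arrays (1.98 ± 0.10). Groups that do not overlap were a condition for being named among the largest rises, so that trait is no result here. The kidney cadherin Cdh16 (1.88 ± 0.10), the bile acid receptor Nr1h4 (1.79 ± 0.16) and the thyroxine carrier Ttr (1.75 ± 0.10, detected on 1 of 3 BPA-vehicle arrays) rose as well. Further down were Ttc27 (1.67 ± 0.10), Bex4 (1.66 ± 0.08), the proteoglycan linker enzyme B3galt6 (1.64 ± 0.11), the receptor of insulin-like peptide 3 Rxfp2 (1.61 ± 0.13), the secretoglobin Scgb1c1 (1.61 ± 0.17) and Cd83 (1.57 ± 0.09), a surface protein of activated dendritic and B cells.

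**Figure D1:**
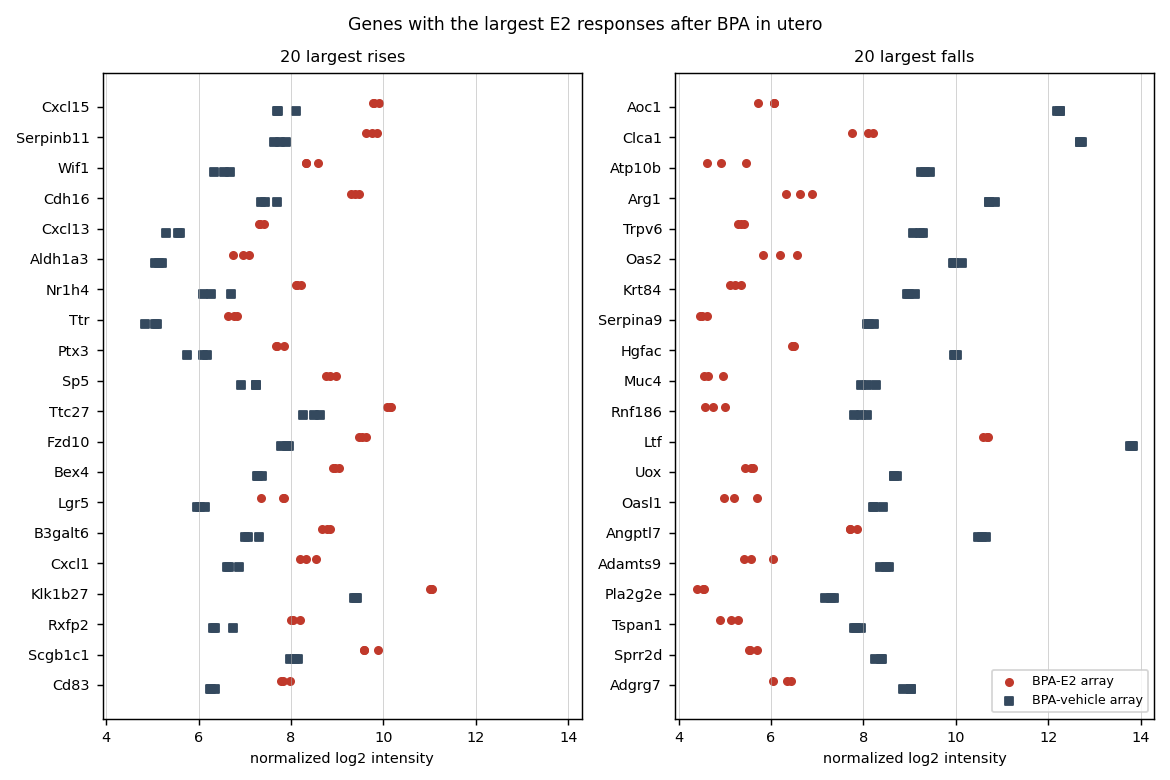
Normalized log2 intensity (horizontal axis) of the 20 genes with the largest rises (left) and the 20 with the largest falls (right) among called genes with an informative symbol, with 1 red circle per BPA-E2 array and 1 dark square per BPA-vehicle array. In all 40 genes the 3 E2 values and the 3 vehicle values do not overlap, which was a condition for being drawn, and the falls span a wider range, with Aoc1 lowest at -6.29 ± 0.10.

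The pools are whole uteri, so the markers of its cell types were read before the pathways. Of 20 tested luminal and glandular epithelial markers 17 were lower (median -0.84, against 0.03 over all units), and in the other direction limma called 0, also 0 at an unadjusted p under 0.05. Their summed normalized intensity on the linear scale was 16809 to 17431 on the BPA-E2 arrays, against 33293 to 35763 on the BPA-vehicle arrays. Elf3, an epithelial transcription factor, read 10.63, 10.66 and 10.54 on the BPA-E2 arrays and 12.25, 12.27 and 12.39 on the BPA-vehicle arrays (-1.69 ± 0.07). The splicing regulator Esrp1 (-0.90 ± 0.07) and the vesicle protein Rab25 (-0.91 ± 0.06) fell as well. In such bulk samples fewer cells of a type and less RNA per cell cannot be told apart, and the part of this shift in the epithelial gene groups below was not tested.

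Markers of glands and stroma were called in both directions, those of smooth muscle mostly lower and those of blood vessels in part higher. Of 10 uterine gland markers 3 rose and 3 fell, and their summed level overlapped between the groups (3195 to 3413 on the BPA-E2 arrays, 2981 to 3322 on the BPA-vehicle arrays). Stromal markers were split, with 4 higher and 4 lower of 16, among them the surface glycoprotein Thy1 (0.59 ± 0.08) and the transcription factor Tcf21 (0.63 ± 0.11) higher and Vim (-0.47 ± 0.08) lower. Without replicate 3 of the BPA-E2 group, or replicate 3 of the BPA-vehicle group, 2 stromal markers were higher. Smooth muscle showed 11 of 19 markers lower and 1 higher, which was not called once litter was a block, with a summed level of 140616 to 145982 on the BPA-E2 arrays, against 166253 to 175322 on the BPA-vehicle arrays. The smooth muscle actin Actg2 read 13.68, 13.67 and 13.72 on the BPA-E2 arrays and 14.78, 14.76 and 14.60 on the BPA-vehicle arrays (-1.02 ± 0.08), and the actin-binding Tagln (-0.67 ± 0.08) and the myosin Myh11 (-0.49 ± 0.06) also fell. Endothelial markers were higher for 7 of 16, and limma called 0 lower, with 2 lower at an unadjusted p under 0.05 and 2 called without background correction. The higher ones included the surface glycoprotein Emcn (0.61 ± 0.07) and the adhesion molecule Esam (0.52 ± 0.07).

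Markers of lymphatic vessels and mast cells were mostly higher. Of 6 lymphatic endothelial markers 4 were higher, led by the secreted glycoprotein Reln (0.93 ± 0.09) and podoplanin, Pdpn (0.83 ± 0.09). Mast cell markers were higher for 7 of 9, and their sum was 9068 to 9327 on the BPA-E2 arrays, against 5629 to 5662 on the BPA-vehicle arrays. Hdc, the enzyme that makes histamine, read 11.78, 11.88 and 11.88 on the BPA-E2 arrays and 10.82, 10.86 and 10.73 on the BPA-vehicle arrays (1.04 ± 0.08), and the stem cell factor receptor Kit rose by 0.78 ± 0.07. Of 14 adipocyte and lipid storage genes 7 were higher and 1, the glucose transporter Slc2a4 (-1.08 ± 0.19), was lower. Their sum was 20998 to 21812 on the BPA-E2 arrays and 14567 to 14717 on the BPA-vehicle arrays. Lep, the leptin gene, read 10.46, 10.48 and 10.54 on the BPA-E2 arrays and 9.07, 9.04 and 9.07 on the BPA-vehicle arrays (1.43 ± 0.09), beside the carbonic anhydrase Car3 (1.35 ± 0.08) and adiponectin, Adipoq (1.00 ± 0.08).

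Blood cell markers did not shift as a block. Of 20 macrophage and dendritic cell markers 2 were higher, Lyz2 (0.49 ± 0.07) and Cd74 (0.47 ± 0.08), and 4 lower, the lipopolysaccharide receptor Cd14 (-1.22 ± 0.08), Ms4a7 (-0.54 ± 0.09), Adgre1 (-0.49 ± 0.08) and C1qc (-0.36 ± 0.08). Called members made up 30.0% of this list, against 29.0% of all units. With a variance trend 7 were lower. H2-Aa and Itgam of this list were not detected on any of the 6 arrays. Neutrophil and eosinophil markers had 3 of 12 higher, S100a8 (0.84 ± 0.06), S100a9 (1.35 ± 0.10) and Prg2 (1.32 ± 0.11), and 2 lower, the resistin-like Retnlg (-2.60 ± 0.11) and myeloperoxidase, Mpo (-1.19 ± 0.15). Of 11 lymphocyte markers 2 passed as higher, Cd3e and Cd3g, both calls that were lost when single arrays were left out, and of 4 red cell genes Alas2 (0.53 ± 0.11) was higher.

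Markers of neighbouring tissues changed in few members. Mesothelial markers summed to 4608 to 4890 on the BPA-E2 arrays, against 6451 to 6667 on the BPA-vehicle arrays. Their median log2 change was 0.26, so the lower sum does not stand for most members. Of 7 the mesothelial Upk3b was higher (0.42 ± 0.07) and Krt19, also an epithelial keratin, lower. Squamous markers summed to 474 to 491 on the BPA-E2 arrays and 770 to 832 on the BPA-vehicle arrays, with Sfn (-1.55 ± 0.11) and Krt14 (-0.57 ± 0.07) lower of 8. Of 7 oviduct and ciliated cell markers Rsph1 (-1.26 ± 0.15) and Tppp3 (-0.56 ± 0.07) were lower and the oviductin Ovgp1 (0.34 ± 0.09) passed as higher, but not once litter was a block (adjusted p = 0.0614). Of 4 ovary and steroidogenic markers Gdf9 passed as higher (0.29 ± 0.10, adjusted p = 0.0494), a call lost without background correction (adjusted p = 0.242). Of 5 nerve and glia markers Stmn2 (0.76 ± 0.12) was higher and Mbp (-0.56 ± 0.09) lower, and of 7 skeletal muscle markers Tnni2 (-0.46 ± 0.09) was lower.

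**Figure D2:**
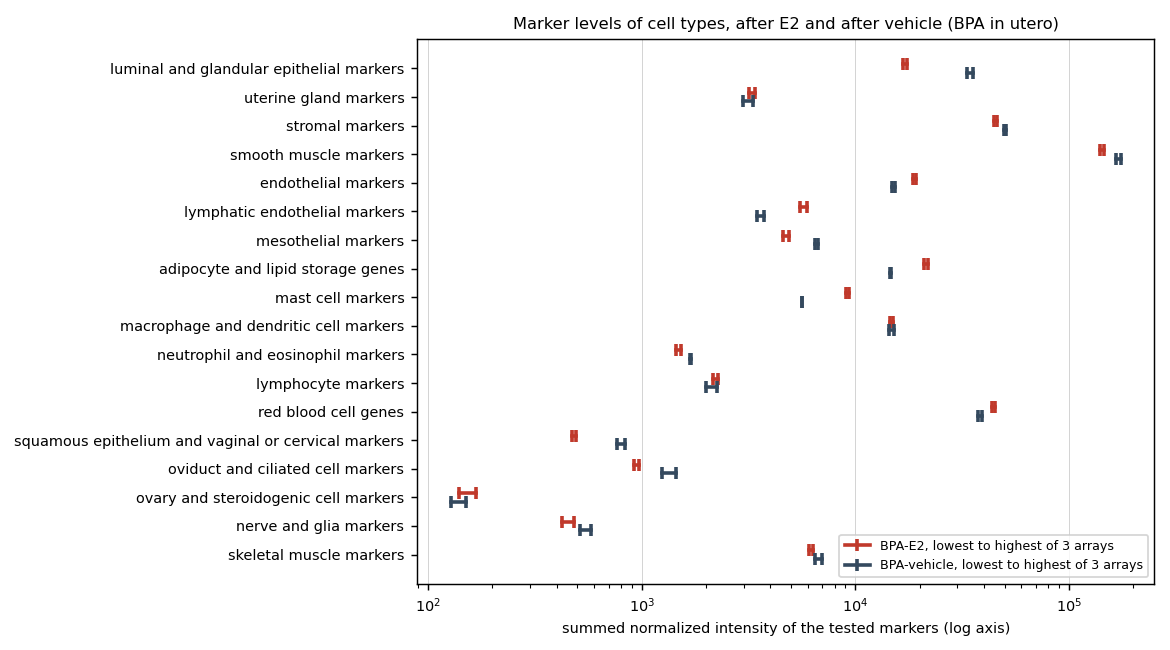
Summed normalized intensity of the tested markers of each cell type (horizontal log axis), with the lowest to the highest of the 3 BPA-E2 arrays in red above the lowest to the highest of the 3 BPA-vehicle arrays in dark blue. Epithelial markers lie at 16809 to 17431 against 33293 to 35763, while mast cell and adipocyte markers lie higher on the BPA-E2 arrays and the uterine gland, macrophage and lymphocyte ranges overlap.

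Secreted and mucosal defence proteins fell together with E2. Of 18 tested 13 were lower and 2 higher (median -1.18), and their summed level was 40759 to 42324 on the BPA-E2 arrays, against 91692 to 91755 on the BPA-vehicle arrays. Lipocalin 2, Lcn2, an iron-carrier-binding protein of mucosal defence, read 12.33, 12.36 and 12.46 on the BPA-E2 arrays, against 14.86, 14.88 and 14.90 on the BPA-vehicle arrays (-2.50 ± 0.06, adjusted p = 9.24e-08). The transmembrane mucin Muc1 read 9.78, 9.95 and 9.92 on the BPA-E2 arrays and 11.95, 11.96 and 11.89 on the BPA-vehicle arrays (-2.05 ± 0.07). The copper oxidase ceruloplasmin, Cp, fell as well (-1.77 ± 0.07). Epithelial markers, given above, were lower on the same arrays, and their part in these falls was not tested.

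Barrier proteins of stratified and luminal epithelium were lower in part. Small proline-rich and cornified envelope genes, which encode cross-linked surface proteins, had 5 of 12 members lower and 1 higher. Sprr2f read 11.30, 11.20 and 11.16 on the BPA-E2 arrays and 13.49, 13.44 and 13.72 on the BPA-vehicle arrays (-2.33 ± 0.10), and Sprr2d (-2.75 ± 0.09) and Sprr1a (-1.93 ± 0.28) fell as well. The Sprr2 genes are close copies, so values of single members are uncertain. Sprr2g fell (-0.33 ± 0.07), while Sprr2e (lower) and Dmkn (higher) lost their calls when single arrays were left out. Keratins, the intermediate filaments of epithelia, were lower for 8 of 13 and higher for 2. The hair-type keratin Krt84 read 5.36, 5.23 and 5.11 on the BPA-E2 arrays and 8.94, 8.99 and 9.12 on the BPA-vehicle arrays (-3.78 ± 0.12). The simple-epithelial Krt19 (-1.48 ± 0.06), Krt7 (-1.44 ± 0.09), Krt8 (-1.03 ± 0.09) and Krt18 (-0.74 ± 0.07) fell, and Krt23 rose (0.96 ± 0.09).

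The 3 tested peptidylarginine deiminases, enzymes that turn arginine residues of keratins and histones into citrulline, were each called lower. Padi1 read 13.32, 13.39 and 13.29 on the BPA-E2 arrays and 14.47, 14.56 and 14.47 on the BPA-vehicle arrays (-1.17 ± 0.06), Padi2 fell (-1.80 ± 0.11), and Padi4, which also fell (-1.01 ± 0.19), was detected on 2 of 3 BPA-E2 arrays. Claudins and tight junction proteins, which seal the space between epithelial cells, were lower for 6 of 16 and higher for 1. Cldn2, the pore-forming claudin, fell (-1.73 ± 0.09), as did Cldn23 (-0.90 ± 0.08), Cldn3 (-0.81 ± 0.10) and the scaffold Tjp3 (-1.40 ± 0.12). Cldn1, the sealing claudin of epidermis, went the other way, with 7.50, 7.94 and 7.71 on the BPA-E2 arrays and 6.34, 6.36 and 6.49 on the BPA-vehicle arrays (1.32 ± 0.11).

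Channels that move water and ions were lower for 10 of 23 and higher for 4. The gland-type water channel Aqp5 read 8.55, 8.79 and 8.77 on the BPA-E2 arrays, against 10.16, 10.14 and 10.11 on the BPA-vehicle arrays (-1.43 ± 0.08). Aqp4 was not above background on any BPA-E2 array and was at least 1.97-fold lower, and the sodium pump modulator Fxyd3 fell (-1.29 ± 0.08). The sodium channel subunit Scnn1b (0.72 ± 0.07) and the sodium pump subunit Atp1b1 (0.72 ± 0.07) rose. Enzymes of arginine, polyamines and biogenic amines were split, with 4 higher and 4 lower of 14. Beside Aoc1 and Arg1, the arginine-making Ass1 fell (-1.02 ± 0.10), while spermidine synthase, Srm (0.51 ± 0.06), and the indole amine methyltransferase Inmt (1.15 ± 0.07) rose. Ornithine decarboxylase, Odc1, did not pass (0.25 ± 0.09, adjusted p = 0.0642). Its groups did not overlap, which held for 46.0% of all units tested.

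**Figure D3:**
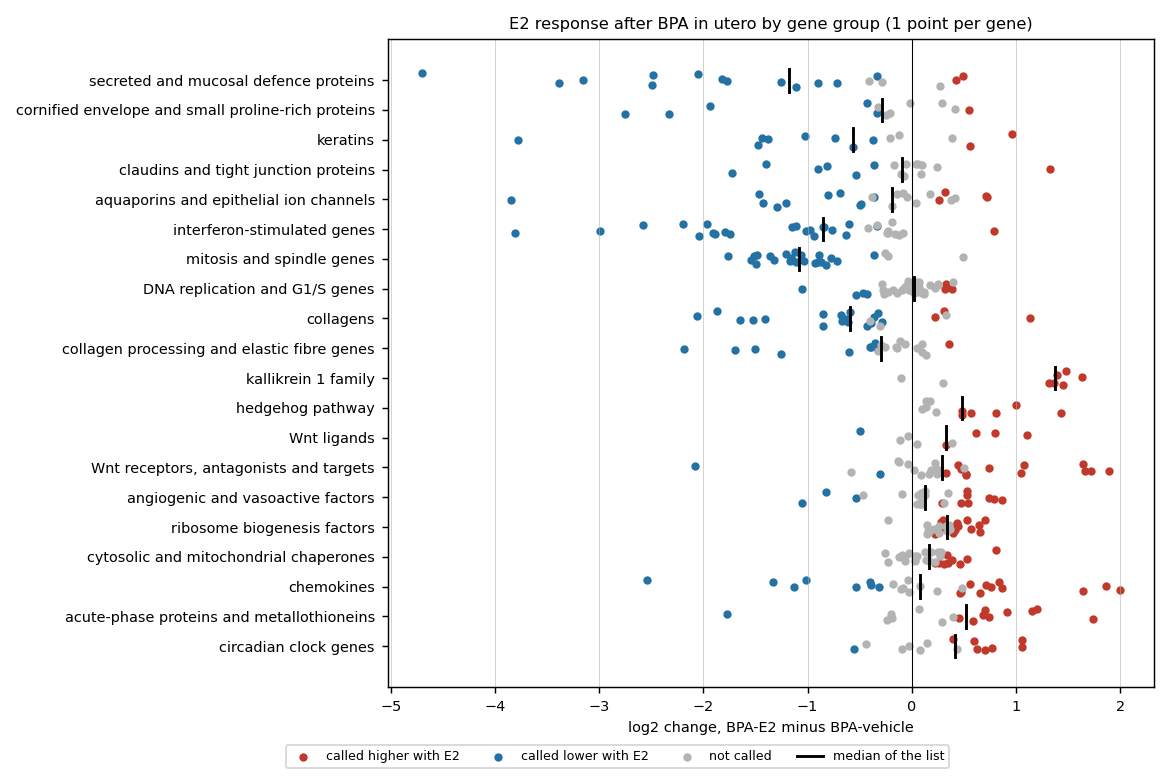
Log2 change, BPA-E2 minus BPA-vehicle (horizontal axis), of each tested gene in 20 gene groups, red where called higher, blue where called lower, grey where not called, with the median of the group as a black bar. Points of the secreted, interferon and mitosis groups lie mostly left of 0 with medians of -1.18, -0.85 and -1.09, and those of the kallikrein 1 family mostly right of 0 with a median of 1.38.

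Interferon-stimulated genes, which type I and type II interferons switch on and which act against viruses, were lower with E2. Of 31 tested 21 were lower and 1 higher (median -0.85), and their summed level was 20857 to 21442 on the BPA-E2 arrays, against 29898 to 31169 on the BPA-vehicle arrays. Oas1g, an enzyme that makes oligoadenylate on sensing double-stranded RNA, read 6.75, 6.88 and 6.76 on the BPA-E2 arrays and 9.45, 9.26 and 9.44 on the BPA-vehicle arrays (-2.58 ± 0.08, adjusted p = 2.37e-07). Oas2 read 6.56, 5.83 and 6.21 on the BPA-E2 arrays and 9.96, 10.14 and 9.93 on the BPA-vehicle arrays (-3.81 ± 0.16). Oas1g has close copies in the mouse genome, so its own value is uncertain.

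The same direction held for Isg15, a ubiquitin-like modifier, at 7.51, 7.65 and 7.35 on the BPA-E2 arrays and 9.67, 9.53 and 9.45 on the BPA-vehicle arrays (-2.05 ± 0.12). Usp18, the protease that removes Isg15 from proteins, fell (-1.89 ± 0.11), as did the RNA helicase Dhx58 (-1.97 ± 0.11) and the oligoadenylate synthetase-like Oasl1 (-2.99 ± 0.19) and Oasl2 (-2.20 ± 0.11). The 1 member called higher was Irf9 (0.79 ± 0.08), an interferon regulatory factor, which was picked out after its value was seen. Ifih1 was not detected on any of the 6 arrays. The macrophage marker sum, of cells that can express these genes, was 14513 to 14978 on the BPA-E2 arrays and 14353 to 15235 on the BPA-vehicle arrays, so the ranges overlapped. The epithelial marker sum was 16809 to 17431 on the BPA-E2 arrays and 33293 to 35763 on the BPA-vehicle arrays. The part of either cell type in these falls was not tested.

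Promoters of 2 of these genes are shown because the interferon-stimulated response element, a motif of interferon-responsive promoters, can be read in them directly. The element was searched on both strands, as a pair of GAAA repeats with 2 bases of any kind between them, in the 250 bases before each RefSeq gene start (GRCm38.p6). A gene was counted if any of its starts had a match. The element was in 936 of 27025 genes with a promoter sequence (3.46%) and in 325 of 9963 such genes that were tested (3.26%). Of the 21 tested interferon-stimulated genes with a sequence 12 held it, and of the 14 called lower 9 did. The 140 bases before the start follow, with matches in capitals, which overlap each other in both genes.
Isg15 (chr4:156200819-156200958, minus strand): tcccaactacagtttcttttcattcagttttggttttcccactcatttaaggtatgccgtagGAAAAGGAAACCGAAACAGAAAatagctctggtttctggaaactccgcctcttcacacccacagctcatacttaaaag
Oas1g (chr5:120887614-120887753, minus strand): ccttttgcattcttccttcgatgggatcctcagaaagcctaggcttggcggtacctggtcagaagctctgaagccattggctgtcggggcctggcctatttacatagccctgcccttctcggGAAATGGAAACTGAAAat
These letters describe the sequence and do not show that the element was in use. Among all genes called lower with a promoter sequence, 56 of 1481 held the element (3.78%), and among those called higher 44 of 1514 (2.91%).

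Genes of mitosis and the spindle were lower with E2, while genes of DNA replication were mostly not called. Of 26 tested mitosis genes 23 were lower (median -1.09), and limma called 0 higher, with 1 higher at an unadjusted p under 0.05. They had a summed level of 6496 to 6652 on the BPA-E2 arrays, against 14119 to 14483 on the BPA-vehicle arrays. Cenpa, the histone that marks centromeres, read 10.08, 9.98 and 10.04 on the BPA-E2 arrays and 11.57, 11.49 and 11.49 on the BPA-vehicle arrays (-1.49 ± 0.07, adjusted p = 1.87e-06). Cdc20, the activator of the anaphase-promoting complex, read 8.77, 8.78 and 8.77 on the BPA-E2 arrays and 9.91, 10.01 and 9.92 on the BPA-vehicle arrays (-1.17 ± 0.06). In both genes the 3 values of a group lay close together and the groups did not overlap, which their choice by smallest p favours.

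The checkpoint kinase Bub1b (-1.50 ± 0.08), survivin, Birc5 (-1.55 ± 0.09), and the spindle motors Kif22 (-1.36 ± 0.07) and Kif2c (-1.77 ± 0.11) fell as well. Of 33 genes of DNA replication and the G1/S step 4 were lower and 3 higher (median 0.02), so 21.2% were called, against 29.0% of all units. Thymidine kinase, Tk1 (-1.05 ± 0.10), the ribonucleotide reductase subunit Rrm1 (-0.47 ± 0.10) and the single-strand binding subunit Rpa3 (-0.54 ± 0.07) fell, and the helicase subunit Mcm3 rose (0.38 ± 0.08). Cyclins D and E and the cell-cycle inhibitors had 4 higher and 2 lower of 17. The inhibitor Cdkn1c read 11.86, 11.88 and 11.86 on the BPA-E2 arrays and 11.05, 10.96 and 10.92 on the BPA-vehicle arrays (0.89 ± 0.07). Cdkn1a (0.36 ± 0.06), cyclin D2, Ccnd2 (0.64 ± 0.09), and E2f1 (0.53 ± 0.10) rose with it, and Cdkn2c fell (-0.40 ± 0.09).

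Many mitosis genes carry CCAAT boxes, bound by NF-Y, and a CHR element, bound by the DREAM and MuvB complexes, close to their start. Both were searched on both strands in the same 250 bases, CCAAT by those letters and CHR as TTTGAA. The box CCAAT was in 37.5% of all genes with a promoter sequence and in 13 of the 19 called-lower mitosis genes with one. TTTGAA was in 18.3% of all such genes and in 8 of the 19. Both together were in 6.45% of all such genes and in 7 of the 19. The 140 bases before the start of 2 members are shown, with matches in capitals. A match on the other strand appears as its reverse complement.
Cdc20 (chr4:118437344-118437483, minus strand): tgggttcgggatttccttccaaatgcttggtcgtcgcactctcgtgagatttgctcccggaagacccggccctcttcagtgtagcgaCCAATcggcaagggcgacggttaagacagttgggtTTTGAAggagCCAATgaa
Kif22 (chr7:127042421-127042560, minus strand): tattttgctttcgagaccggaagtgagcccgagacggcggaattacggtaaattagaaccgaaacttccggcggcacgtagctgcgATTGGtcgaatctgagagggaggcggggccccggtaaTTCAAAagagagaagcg
CCAAT was in 633 of all 1481 genes called lower with a promoter sequence (42.7%) and in 587 of 1514 of those called higher (38.8%). TTTGAA was in 216 of the 1481 (14.6%) and in 172 of the 1514 (11.4%). Among all tested genes with a sequence, CCAAT was in 40.0% and TTTGAA in 13.2%.

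**Figure D4:**
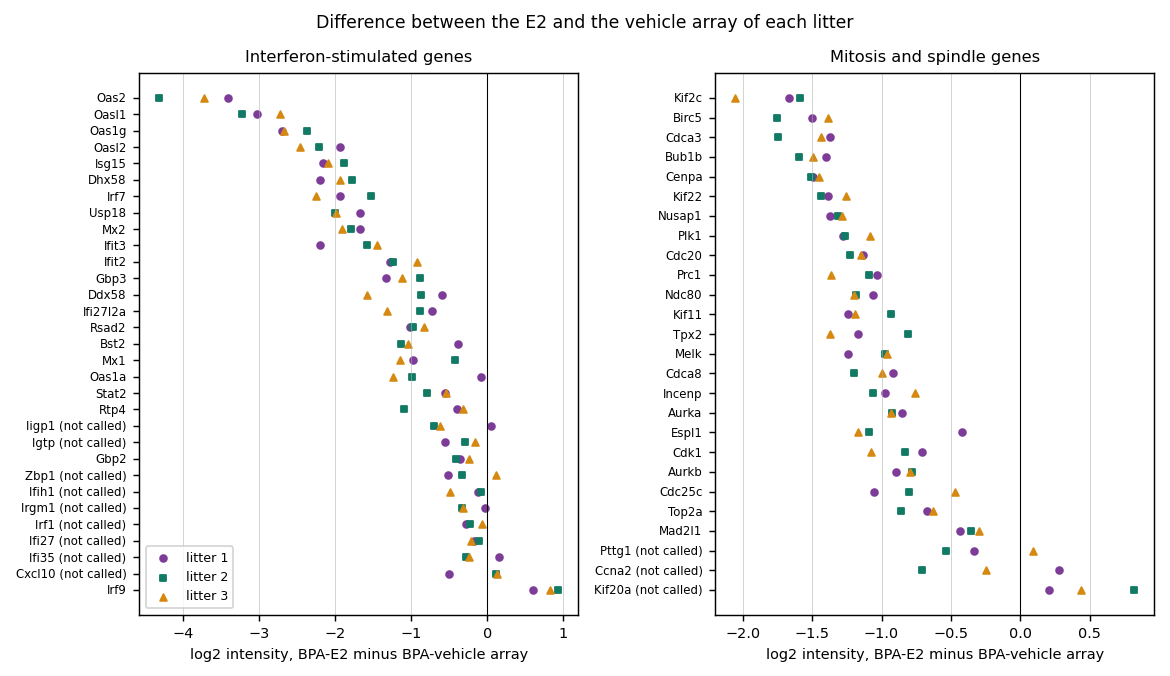
Log2 intensity of the BPA-E2 array minus the BPA-vehicle array of the same litter (horizontal axis) for the tested interferon-stimulated genes (left) and the mitosis and spindle genes (right), with 1 marker per litter (purple circle litter 1, green square litter 2, orange triangle litter 3). For the 21 interferon genes and 23 mitosis genes called lower all 3 litters lie left of 0, which follows largely from the call on these same arrays. The litters of Oas2 lie between -4.31 and -3.40.

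Structural matrix genes were lower with E2. Of 23 collagens 17 fell and 3 rose (median -0.59), with a summed level of 56651 to 57929 on the BPA-E2 arrays, against 85395 to 87696 on the BPA-vehicle arrays. The fibrillar Col1a1 read 11.63, 11.56 and 11.61 on the BPA-E2 arrays and 13.05, 13.18 and 13.16 on the BPA-vehicle arrays (-1.53 ± 0.07, adjusted p = 1.98e-06). Col7a1, which forms the anchoring fibrils under epithelia, read 8.23, 8.30 and 8.32 on the BPA-E2 arrays and 10.31, 10.37 and 10.36 on the BPA-vehicle arrays (-2.07 ± 0.07). Col1a2 (-1.65 ± 0.12), Col3a1 (-1.41 ± 0.13) and Col5a1 (-0.85 ± 0.07) fell, and the transmembrane Col23a1 rose (1.13 ± 0.09).

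Genes that process collagen and build elastic fibres were lower for 9 of 21 and higher for 1. Lysyl oxidase, Lox, which cross-links collagen and elastin, read 9.33, 9.30 and 9.39 on the BPA-E2 arrays and 11.52, 11.53 and 11.54 on the BPA-vehicle arrays (-2.19 ± 0.07). Elastin, Eln (-1.50 ± 0.10), the microfibril proteins Mfap2 (-1.70 ± 0.11) and Mfap5 (-1.26 ± 0.10), the lysyl hydroxylase Plod2 (-0.61 ± 0.07) and the prolyl hydroxylase P4ha2 (-0.41 ± 0.07) fell too. Proteoglycans and matricellular proteins were mixed, with 7 lower and 5 higher of 23: the collagen-binding Sparc (-0.97 ± 0.07), Ogn (-0.95 ± 0.09), Lum (-0.68 ± 0.08) and Vcan (-0.87 ± 0.13) fell, while the glypican Gpc3 (1.02 ± 0.08) and Prelp (0.52 ± 0.08) rose. Markers of stromal cells, a main source of these transcripts, summed to 44699 to 45987 on the BPA-E2 arrays and 49844 to 50601 on the BPA-vehicle arrays, and their part was not tested.

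Proteases and their inhibitors moved both ways. Of 24 metalloproteases and inhibitors 7 were lower, among them Adamts12 (-1.94 ± 0.07), Mmp23 (-1.33 ± 0.08) and Adam12 (-1.03 ± 0.11), and 6 higher, among them the inhibitor Timp3 (0.86 ± 0.07) and the aggrecan-cleaving Adamts4 (0.65 ± 0.07). Mmp7 was not detected on any of the 6 arrays. Of 10 serpins 3 were lower, Serpina9, Serpinb1a (-1.16 ± 0.11) and the pigment epithelium-derived factor Serpinf1 (-0.69 ± 0.07), and 2 higher, Serpinb11 and Serpina3n (0.69 ± 0.07). Kallikrein 1 family genes, which encode secreted serine proteases known to be estrogen-induced in rodent uterus, were higher for 6 of 8 (median 1.38). Klk1 read 11.01, 11.10 and 10.88 on the BPA-E2 arrays and 9.47, 9.53 and 9.65 on the BPA-vehicle arrays (1.45 ± 0.09, adjusted p = 6.55e-06). Klk1b27, Klk1b5, Klk1b26, Klk1b21 and Klk1b24 rose by 1.32 to 1.63, but these genes are near-identical and their probes may share signal.

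Hedgehog signals are known to pass between uterine epithelium and stroma: the ligand Ihh of the epithelium binds the receptor Ptch1, which is itself a target, and the GLI factors carry the signal. Of 11 tested genes 6 were higher (median 0.48). Ptch1 read 8.82, 8.93 and 8.82 on the BPA-E2 arrays, against 7.61, 7.36 and 7.32 on the BPA-vehicle arrays (1.43 ± 0.09, adjusted p = 7.25e-06). Ihh, at 7.32, 6.87 and 6.95 on the BPA-E2 arrays and 6.57, 5.88 and 6.27 on the BPA-vehicle arrays, was dimmer and varied more between litters (0.81 ± 0.18, adjusted p = 0.00976). Dhh (1.00 ± 0.12), Gli2 (0.48 ± 0.06) and the stromal nuclear receptor Nr2f2 (0.48 ± 0.11) rose, and Hhip, not above background with vehicle, lost its call without background correction (adjusted p = 0.0513).

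Wnt ligands bind Frizzled receptors and act through beta-catenin or other routes, and Wnt7a and Wnt4 are known for their part in uterine development. Of 9 ligands 4 were higher and 1 lower. Wnt7a, made by the luminal epithelium, read 10.48, 10.54 and 10.34 on the BPA-E2 arrays and 9.80, 9.49 and 9.69 on the BPA-vehicle arrays (0.79 ± 0.10). Wnt6 (1.11 ± 0.15, detected on 1 of 3 BPA-vehicle arrays) and Wnt5b (0.61 ± 0.12) rose and Wnt7b fell (-0.50 ± 0.11), while the call of Wnt4 as higher (0.33 ± 0.10, adjusted p = 0.0347) did not hold once litter was a block (adjusted p = 0.0668). Of 26 receptors, antagonists and targets 12 were higher and 2 lower. The secreted inhibitor Wif1 read 8.58, 8.32 and 8.33 on the BPA-E2 arrays and 6.33, 6.55 and 6.68 on the BPA-vehicle arrays (1.89 ± 0.14).

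The receptor Fzd10 (1.66 ± 0.08) and the targets Sp5 (1.72 ± 0.11) and Lgr5 (1.65 ± 0.16), also a receptor for R-spondins, rose. Sp5 read 8.84, 8.98 and 8.76 on the BPA-E2 arrays and 7.25, 6.92 and 7.25 on the BPA-vehicle arrays. The feedback inhibitors Nkd2 (1.05 ± 0.10) and Notum (1.07 ± 0.12) rose as well.

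Other developmental signals showed single strong members. Of 19 BMP, activin and TGF-beta ligands and antagonists 4 were higher and 3 lower. Gdf10 read 11.67, 11.67 and 11.75 on the BPA-E2 arrays and 10.25, 10.23 and 10.34 on the BPA-vehicle arrays (1.43 ± 0.07). The TGF-beta-induced matrix protein Tgfbi (1.23 ± 0.07) and the BMP antagonist Nbl1 (0.32 ± 0.07) rose, and Bmp3 (-1.19 ± 0.19), the procollagen protease Bmp1 (-0.43 ± 0.06) and Fstl1 (-0.65 ± 0.10) fell. Of 17 Hox and patterning regulators 6 were higher and 2 lower, with the homeobox gene Msx1 at 11.96, 12.02 and 12.11 on the BPA-E2 arrays and 10.99 to 11.04 on the BPA-vehicle arrays (1.02 ± 0.07). Hoxd9 rose by 0.29 ± 0.07, and Sox9 (-0.63 ± 0.08) and Pax8 (-0.49 ± 0.11) fell. Without replicate 2 of the BPA-E2 group 3 of these regulators were higher.

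Growth factor systems were split. Of 17 genes of the insulin-like growth factor system 5 were higher and 4 lower. The carrier Igfbp3 read 9.85, 10.04 and 10.08 on the BPA-E2 arrays and 8.72, 8.62 and 8.43 on the BPA-vehicle arrays (1.40 ± 0.10). Stc1 (1.34 ± 0.12) and the acid-labile subunit Igfals (1.11 ± 0.14) rose, and Stc2 (-0.72 ± 0.08) and the protease Htra1 (-0.50 ± 0.07) fell. Igf1, the stromal growth factor known to relay the E2 signal to the epithelium, did not pass (-0.04 ± 0.06, adjusted p = 0.683), and another of its probes was called in the opposite direction, as was 1 of the receptor Igf1r (0.41 ± 0.07). Of 10 EGF ligands and ErbB genes 1 was higher and 3 lower, and of these the ErbB inhibitor Lrig1 (-0.54 ± 0.06) fell in each alternative tried. Of 18 FGF genes 7 were higher and 2 lower, among them the receptor Fgfr2 (0.56 ± 0.06) and Fgf18 (0.79 ± 0.14) higher and the phosphatase Dusp6 (-0.59 ± 0.07) lower. The FGF count of 7 fell to 3 without replicate 2 of the BPA-E2 group or replicate 1 of the BPA-vehicle group, and to 4 without replicate 3 of the BPA-E2 group.

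Retinoid genes, which make and bind retinoic acid, moved in opposite directions. Aldh1a3, the retinaldehyde dehydrogenase of epithelia, read 6.95, 7.09 and 6.75 on the BPA-E2 arrays and 5.22, 5.05 and 5.14 on the BPA-vehicle arrays, where it was detected on 2 of 3 (1.80 ± 0.10). Aldh1a1 rose (0.57 ± 0.10), while Aldh1a2 of the stroma (-0.36 ± 0.08), the retinol dehydrogenases Dhrs9 (-0.78 ± 0.15) and Adh1 (-0.32 ± 0.06) and the binding protein Crabp2 (-1.29 ± 0.13) fell. In all 3 were higher and 6 lower of 19. Of 14 prostaglandin genes 2 were lower, the carbonyl reductase Cbr2 (-1.60 ± 0.07) and the prostaglandin-degrading Hpgd (-1.48 ± 0.13), and 2 higher. That was 28.6% called, against 29.0% of all units. Of the higher ones Ptger2, a receptor for prostaglandin E2 (not estradiol), was not above background with vehicle and at least 1.39-fold higher.

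Of 23 angiogenic and vasoactive genes 8 were higher and 3 lower. Vegfa read 11.37, 11.30 and 11.04 on the BPA-E2 arrays and 10.54, 10.40 and 10.54 on the BPA-vehicle arrays. Its receptor Flt1 (0.54 ± 0.07), Angpt2 (0.79 ± 0.08) and the endothelial nitric oxide synthase Nos3 (0.87 ± 0.09) rose. The lymphatic growth factor Vegfd (-0.82 ± 0.09) and the receptor activity-modifying protein Ramp1 (-1.05 ± 0.09) fell. Endothelial markers summed to 18655 to 19253 on the BPA-E2 arrays and 14868 to 15398 on the BPA-vehicle arrays, and their part was not tested.

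Ribosome biogenesis factors, part of the known early growth response, were mostly higher by small amounts, while other groups of that response were called in a smaller share of their members. Of 29 ribosome biogenesis factors 17 were higher (median 0.34), with a summed level of 63402 to 64483 on the BPA-E2 arrays, against 51215 to 51623 on the BPA-vehicle arrays. The snoRNP protein Nop58 read 12.38, 12.36 and 12.27 on the BPA-E2 arrays and 11.70, 11.70 and 11.68 on the BPA-vehicle arrays (0.64 ± 0.07). Rrp1b (0.70 ± 0.07), Nop56 (0.57 ± 0.07), Rrp12 (0.53 ± 0.06), Wdr43 (0.43 ± 0.08) and Mybbp1a (0.39 ± 0.07) rose beside it. Cytosolic and mitochondrial chaperones were higher for 9 of 29. So 31.0% were called, all higher, against 29.0% of all units called and 15.3% called higher. The higher ones included the small heat shock protein Cryab (0.81 ± 0.10), mitochondrial Hspa9 (0.46 ± 0.06), the chaperonin subunit Cct6a (0.53 ± 0.08) and the co-chaperone Stip1 (0.34 ± 0.06). Of 18 aminoacyl-tRNA synthetases 8 were higher and 1 lower, with Cars (0.93 ± 0.08) and Farsa (0.79 ± 0.09) highest and Qars (-0.37 ± 0.08) lower, but leaving out any of the 6 arrays in turn left 2 to 5 higher.

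The secretory machinery of the endoplasmic reticulum was mostly not called: of 25 genes 3 were lower and limma called 0 higher, with 1 higher at an unadjusted p under 0.05. The lower ones included the chaperone Hspa5 (-0.50 ± 0.11) and the translocon subunit Ssr4 (-0.36 ± 0.06). Of 17 targets of ATF4, the factor of amino acid stress, 4 were higher and 1, Nupr1 (-0.49 ± 0.08), lower. That was 29.4% called, against 29.0% of all units. Chac1, a glutathione-cleaving enzyme, read 8.02, 7.84 and 7.79 on the BPA-E2 arrays and 6.66, 6.81 and 6.92 on the BPA-vehicle arrays (1.09 ± 0.10), with Ddit3 (0.68 ± 0.09), Atf5 (0.55 ± 0.11) and Mthfd2 (0.35 ± 0.07) smaller. The 4 higher ATF4 targets became 7 without background correction, in the authors' processed values or with detection on at least 5 arrays, and 8 with a variance trend. Of 20 cholesterol synthesis genes and SREBP targets 5 were higher and 1, Ebp (-0.49 ± 0.08), lower, so 30.0% were called. The desaturase Scd1, also a gene of fat cells, read 12.40, 12.29 and 12.39 on the BPA-E2 arrays and 11.28, 11.22 and 11.35 on the BPA-vehicle arrays (1.07 ± 0.07), and squalene epoxidase, Sqle, rose by 0.49 ± 0.07.

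Genes of energy metabolism were called in a share near or below that of all units, with counts that moved with the settings. Of 40 subunits of oxidative phosphorylation 9 were lower and 1 higher (median -0.10), for example Atp5a1 (-0.52 ± 0.11), Ndufa4 (-0.35 ± 0.07) and Cox6b1 (-0.36 ± 0.07), and 9 became 4 with litter as a block, 5 without replicate 3 of the BPA-E2 group and 15 with a variance trend. Of 52 mitochondrial ribosomal proteins 5 were higher and 3 lower (median 0.06), so 15.4% were called, against 29.0% of all units. The count of 5 became 1 without replicate 2 or 3 of the BPA-E2 group and 2 without any single BPA-vehicle array, without a filter on dim probes or with litter as a block. It became 3 with cyclic loess, 10 without background correction or in the authors' processed values, and 11 with a variance trend. The 3 lower became 5 without background correction or in the processed values and 6 with a variance trend. Of 20 genes of glycolysis and glucose uptake 4 were lower and 2 higher, so 30.0% were called. The kinase Pdk4, which turns glucose away from oxidation, was lower (-1.11 ± 0.11). The transporter Slc2a3 (0.45 ± 0.09) and the enolase Eno2 (0.49 ± 0.08) were higher. The 4 lower became 8 without background correction or in the processed values, 7 with cyclic loess and 11 with a variance trend.

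Chemokines divided by gene. Of 27 tested 11 were higher and 8 lower. Cxcl17, a chemokine of mucosal epithelia, read 7.76, 8.04 and 7.85 on the BPA-E2 arrays and 10.40, 10.35 and 10.52 on the BPA-vehicle arrays (-2.54 ± 0.09). Cxcl13, which draws B cells, was at 7.33, 7.41 and 7.31 on the BPA-E2 arrays and 5.56, 5.30 and 5.59 on the BPA-vehicle arrays (1.87 ± 0.11). The neutrophil attractant Cxcl1 (1.64 ± 0.12) and stromal Cxcl12 (0.86 ± 0.10) rose and Ccl4 fell (-1.14 ± 0.11), while Ccl20 and Cxcl2 were not detected on any of the 6 arrays.

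Among 16 acute-phase genes and metallothioneins 9 rose and 1, ceruloplasmin, fell (median 0.52). Saa3, an acute-phase lipoprotein, read 8.03, 8.28 and 8.36 on the BPA-E2 arrays and 7.12, 7.10 and 7.0 on the BPA-vehicle arrays (1.15 ± 0.09). The pentraxin Ptx3 (1.73 ± 0.15), Orm1 (1.20 ± 0.13), the cytokine signal inhibitor Socs3 (0.91 ± 0.08) and metallothionein Mt1 (0.70 ± 0.06) rose. Among 21 complement and related genes 7 fell and 4 rose, and 2 rose without replicate 2 or 3 of the BPA-E2 group. Complement factor I, Cfi, read 7.30, 7.09 and 7.04 on the BPA-E2 arrays and 9.60, 9.55 and 9.48 on the BPA-vehicle arrays (-2.40 ± 0.09), factor B, Cfb, fell (-2.19 ± 0.14), and so did the cell-surface inhibitors Cd55 (-0.67 ± 0.09) and Cd59a (-0.38 ± 0.06). The plasminogen activator Plat rose (1.15 ± 0.07), and Plau fell (-0.69 ± 0.09).

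Among 14 clock genes 7 rose and 1 fell (median 0.42). The output factor Dbp read 11.70, 11.57 and 11.63 on the BPA-E2 arrays and 11.06, 10.97 and 10.98 on the BPA-vehicle arrays (0.63 ± 0.07, adjusted p = 0.000257). Per3 (0.77 ± 0.08), Per2 (0.60 ± 0.07), Tef (0.70 ± 0.12) and the repressor Ciart (1.06 ± 0.14) rose, and Bhlhe40 fell (-0.56 ± 0.10). Times of injection and collection for each group are not given in the sources used here, and their part was not tested. Of 16 glucocorticoid-induced genes 4 were higher, among them Mt2 (0.74 ± 0.11) and Sgk1 (0.40 ± 0.06), and 5 lower, among them Ddit4 (-1.22 ± 0.09) and Pdk4, with 3 lower when any of the 6 arrays was left out. With a variance trend 7 of these genes were higher.

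Transcription factors of the immediate early class were higher for 7 of 20 and lower for 2. Klf2, a factor of endothelium, read 10.31, 10.39 and 10.36 on the BPA-E2 arrays and 9.65, 9.77 and 9.55 on the BPA-vehicle arrays (0.69 ± 0.09). Egr1 was bright in every pool, with 13.10, 13.10 and 13.15 on the BPA-E2 arrays and 12.80, 12.74 and 12.75 on the BPA-vehicle arrays. Junb (0.44 ± 0.08) and the phosphatase Dusp2 (1.11 ± 0.21) rose, Jun (-0.48 ± 0.08) and Klf4 (-0.54 ± 0.10) fell, and Fos did not pass (0.15 ± 0.08, adjusted p = 0.2).

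Receptors and enzymes that set steroid action were called in both directions. Of 13 steroid receptors and coregulators 3 were higher and 2 lower. The chaperone of steroid receptors Fkbp4 (0.32 ± 0.07) and the factor Gata2, which acts with the progesterone receptor (0.47 ± 0.07), rose, and the membrane estrogen receptor Gper1 lost its call with cyclic loess (adjusted p = 0.0607). Greb1 and the orphan receptor Esrra (-0.41 ± 0.08) were the 2 lower ones. Greb1 read 9.72, 9.67 and 9.55 on the BPA-E2 arrays, against 10.34, 10.34 and 10.34 on the BPA-vehicle arrays. Of 13 genes of estrogen metabolism and the aryl hydrocarbon receptor 4 were higher and 4 lower. Hsd17b2, which turns E2 into the weaker estrone, was not above background with E2 and at least 1.83-fold lower, Hsd17b11 (-0.76 ± 0.06) and the quinone reductase Nqo1 (-1.24 ± 0.21) fell, and Hsd17b7 (0.68 ± 0.08) and the sulfotransferase Sult1a1 (0.31 ± 0.07) rose.

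Of 26 regulators of DNA and histone methylation 8 were higher and 1 lower (median 0.19). Tet1, which oxidises methylcytosine, read 6.28, 6.25 and 6.16 on the BPA-E2 arrays and 5.39, 4.97 and 5.23 on the BPA-vehicle arrays, where it was detected on 2 of 3 (1.03 ± 0.12). The methyltransferase Dnmt3b (0.46 ± 0.07), the H3K4 methyltransferase subunit Wdr5 (0.51 ± 0.08), Mbd3 (0.35 ± 0.06) and the H3K27 demethylase Kdm6b (0.36 ± 0.07) rose. For the Polycomb methyltransferase Ezh2 the probe used passed as higher (0.38 ± 0.11, adjusted p = 0.0313) and the second probe as lower. Under cyclic loess that rise did not pass (adjusted p = 0.0549). Of 20 imprinted genes 7 were higher, among them Cdkn1c, Ppp1r9a (0.54 ± 0.09) and Impact (0.44 ± 0.07), and 2 lower, Slc22a18 (-0.87 ± 0.14) and the growth factor clearance receptor Igf2r (-0.34 ± 0.07). The 7 higher became 4 with detection on at least 5 arrays. Peg10 was not detected on any of the 6 arrays.

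Spread between litters was small for most genes, with a median SD of 0.11 in the BPA-E2 group and 0.13 in the BPA-vehicle group. The genes with the largest SD among those with a group mean of at least 8 were Cnn2, Ddb1, Pgrmc1, Surf1, Rrbp1, Pcbp3, Nuak1 and Id4 in the BPA-E2 group. In the BPA-vehicle group they were Bst2, Cdh1, Fam107b, Trak1, Wdr89, Cbr1, Evl and Adam9. Pgrmc1, a membrane progesterone-binding protein, read 8.65, 7.95 and 8.51 on the BPA-E2 arrays and 8.12, 8.00 and 8.41 on the BPA-vehicle arrays, and did not pass (adjusted p = 0.623). E-cadherin, Cdh1, the adhesion protein of epithelial junctions, read 9.67, 9.76 and 9.59 on the BPA-E2 arrays and 10.62, 10.08 and 10.88 on the BPA-vehicle arrays. Litter 2 was the lowest of the vehicle pools for Cdh1, and still above every E2 pool (-0.86 ± 0.18, adjusted p = 0.00734). The interferon-stimulated Bst2 read 8.65, 8.56 and 9.05 on the BPA-E2 arrays and 9.03, 9.69 and 10.09 on the BPA-vehicle arrays. Its groups overlapped, and its call (adjusted p = 0.0482) was lost without a filter on dim probes (adjusted p = 0.0693).

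The response after BPA was set against the response of offspring of DMSO-treated dams, which rests on 2 arrays a side and shares no array with it. After DMSO 3643 units were called (22.4%). Both responses were called higher for 733 units and lower for 730. For 280 the response after BPA was higher and that after DMSO lower, and for 158 the reverse. The difference of the responses, BPA minus DMSO, was itself called for 2533 units (15.6%), 1280 above 0 (7.87%) and 1253 below 0 (7.70%), or 1739 with litter as a block.

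Genes named in what follows were taken from those named for their response after BPA or by the gene lists, and that response is 1 term of the difference, so the number of them that differed is no result. For Aoc1 the difference lay far below 0. Aoc1 had a log2 change of -6.29 ± 0.10 after BPA and of -0.45 ± 0.12 after DMSO (difference -5.84 ± 0.16, adjusted p = 4.73e-07). Ltf read 13.8 on average on the BPA-vehicle arrays and its probe ranked 5 to 11 by raw signal on the 4 arrays of DMSO-treated dams, near the top of the range, so its response after DMSO is not set against that after BPA. All 17 called differences among the 23 collagens and all 17 among the 26 mitosis genes were below 0. Kif2c had a log2 change of -1.77 ± 0.11 after BPA and of -0.12 ± 0.13 after DMSO (difference -1.65 ± 0.17), and Col7a1 had -2.07 ± 0.07 after BPA and 0.01 ± 0.09 after DMSO (difference -2.07 ± 0.11).

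The interferon and ribosome groups had similar counts of calls after both exposures. Of 31 interferon-stimulated genes 21 were lower after BPA and 23 after DMSO, and 8 differences were called, 5 above 0 and 3 below 0. Isg15 had a log2 change of -2.05 ± 0.12 after BPA and of -1.77 ± 0.14 after DMSO (difference -0.27 ± 0.18, adjusted p = 0.372). Of 29 ribosome biogenesis factors 17 were higher after BPA and 16 after DMSO, with 2 differences called. Nop58 had a log2 change of 0.64 ± 0.07 after BPA and of 0.78 ± 0.09 after DMSO (difference -0.14 ± 0.11, adjusted p = 0.461). Of 25 endoplasmic reticulum genes 15 were higher after DMSO, and 12 differences were called, all below 0.

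Estrogen target genes were among those whose responses differed. Greb1 had a log2 change of -0.69 ± 0.07 after BPA and of 1.02 ± 0.09 after DMSO (difference -1.71 ± 0.11, adjusted p = 2.36e-05). Mean levels of Greb1 after BPA were 9.65 with E2 and 10.34 with vehicle, against 10.47 and 9.44 after DMSO. Pgr had a log2 change of 0.18 ± 0.10 after BPA and of 1.17 ± 0.12 after DMSO (difference -0.99 ± 0.16), and had not passed after BPA. Mean levels of Pgr after BPA were 9.46 with E2 and 9.27 with vehicle, against 9.43 and 8.26 after DMSO. Ihh had 0.81 ± 0.18 after BPA and 2.29 ± 0.22 after DMSO (difference -1.48 ± 0.28). Mean levels of Ihh after BPA were 7.05 with E2 and 6.24 with vehicle, against 7.16 and 4.87 after DMSO. For Pgr and Ihh the exposures thus differed mainly in the vehicle arrays, where slide and exposure cannot be told apart. Ptch1 had a log2 change of 1.43 ± 0.09 after BPA and of 1.09 ± 0.11 after DMSO, with a difference of 0.34 ± 0.14 (adjusted p = 0.14). Padi2 was lower with E2 after BPA (-1.80 ± 0.11) and higher after DMSO (1.74 ± 0.13), a difference of -3.54 ± 0.17. Klk1 rose less after BPA (1.45 ± 0.09) than after DMSO (3.14 ± 0.11; difference -1.70 ± 0.14, adjusted p = 8.36e-05).

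Several inflammatory, clock and fat cell genes differed in the other direction, above 0. Saa3 had a log2 change of 1.15 ± 0.09 after BPA and of -2.77 ± 0.11 after DMSO (difference 3.92 ± 0.15), S100a8 had 0.84 ± 0.06 after BPA and -1.74 ± 0.08 after DMSO (difference 2.58 ± 0.10), and Inmt had 1.15 ± 0.07 after BPA and -3.58 ± 0.09 after DMSO (difference 4.73 ± 0.12). Macrophage markers were lower for 4 of 20 after BPA and 16 of 20 after DMSO, and 13 differences were called, all above 0. Dbp had a log2 change of 0.63 ± 0.07 after BPA and of -0.82 ± 0.08 after DMSO (difference 1.45 ± 0.11), and 6 of the 7 called differences among clock genes were above 0. Of 14 adipocyte genes 7 differences were called, all above 0, with Car3 at 1.35 ± 0.08 after BPA and -1.38 ± 0.10 after DMSO (difference 2.74 ± 0.13).

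**Figure D5:**
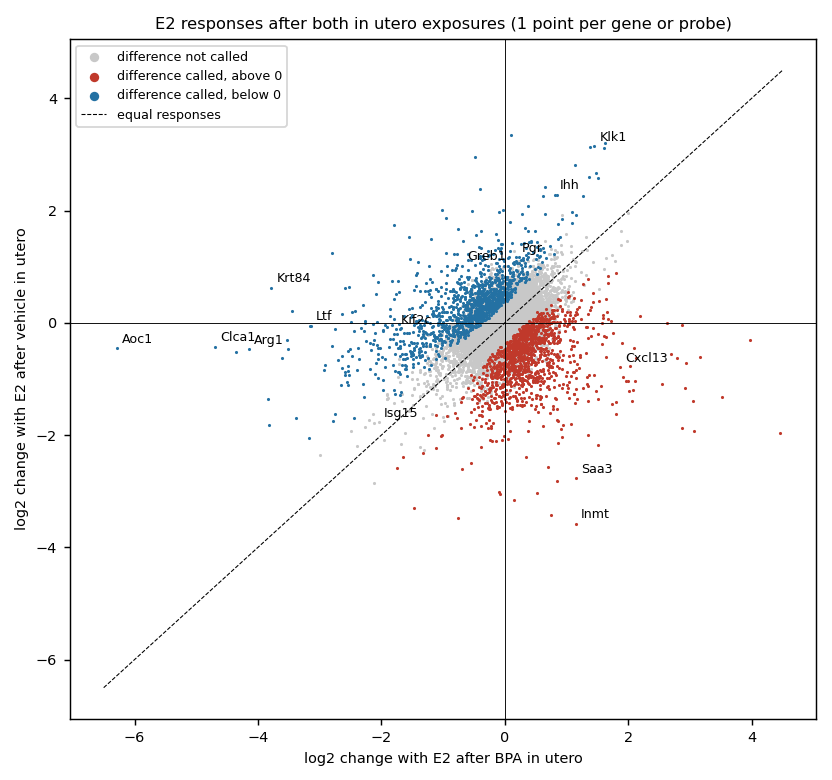
Log2 change with E2 after BPA in utero (horizontal axis, 3 arrays a side) against the log2 change with E2 after DMSO in utero (vertical axis, 2 arrays a side), with 1 point per gene or unnamed probe, red or blue where the difference of the responses was called above or below 0 and grey where it was not. Aoc1 lies far left at -6.29 ± 0.10 with a small change after DMSO, Isg15 lies near the dashed line of equal responses, and Inmt and Saa3 lie low on the right. The named genes were picked after their values were seen.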

How the data were processed

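Total RNA of uteri, pooled by litter per the labels, was read on Illumina bead arrays. For every probe on every array the authors deposited a non-normalized signal intensity with its detection p-value, per the file headers, and a second table of processed intensity. Scanner software and the method of normalization are not given in the sources used here. From the intensity the log2 values used here were computed with limma 3.58.1 (R 4.3.3): background correction by detection p-value and quantile normalization with an offset of 16 (neqc). Probes with a detection p-value under 0.05 on at least 2 of the 10 arrays were kept, 23942 of 45281. The probe of highest mean stood for a gene, and 10378 probes had no symbol.

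One limma model of 4 group means was fitted to all 10 arrays, with Benjamini-Hochberg adjustment over 16272 units and a threshold of 0.05, in place of an exact test. Litter numbers in the labels pair the arrays. Deviations from the group means correlated at -0.00829, 0.0151 and -0.0409 within litters 1, 2 and 3, against -0.053 to 0.0628 between litters. "At least" folds set the brighter group against the lowest signal above background. Named genes were the 20 largest non-overlapping changes each way, up to 6 called members of each list with the smallest p, 14 fixed genes, and the 8 most variable genes of each group. The 65 gene lists were chosen with earlier results of these data known. The alternatives tried were the processed table, leaving the background uncorrected, cyclic loess, other probe filters, all probes, the 6 arrays alone, litter as a block, a variance trend with robust estimation, and leaving out each array. Some genes are not analysed here. Figures used matplotlib 3.10.9.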

Additional observations from a re-analysis of the deposited data

Results flagged for a closer look

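For 25 named genes the E2 response after BPA in utero differed from that after DMSO in utero by limma's test of the difference at an adjusted p under 0.05. They are 25 of 36 genes looked at, taken from the 12 largest rises, the 12 largest falls and 14 fixed genes, against 15.6% of all units. Most were chosen for the size of the response after BPA, which is 1 term of the difference, so the count of 25 is no result. Differences are log2, response after BPA minus response after DMSO. Exposure and slide cannot be told apart for all of them.

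Below 0 were Aoc1 (-5.84), Krt84 (-4.41), Clca1 (-4.28), Atp10b (-3.83), Arg1 (-3.68), Ltf (-3.10), Hgfac (-3.05), Serpina9 (-2.98), Trpv6 (-2.48), Muc4 (-1.69) and Rnf186 (-1.12). Muc4 lost this call without background correction and Rnf186 changed direction, both near background with E2. The Ltf probe ranked 5 to 11 by raw signal on the arrays of DMSO-treated dams, so a response there may not show and its difference is not interpretable as a size. The interferon-stimulated Oas2 (-1.998) was also below 0. So were the estrogen-related genes Greb1 (-1.71), Ihh (-1.48), Pgr (-0.99) and Egr1 (-0.41), of which Egr1 lost the call with litter as a block (adjusted p = 0.0845).

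Above 0 were the chemokine Cxcl13 (2.65), the thyroxine carrier Ttr (1.93), the Wnt genes Sp5 (1.69), Wnt4 (0.98) and Fzd10 (0.96), the retinoid enzyme Aldh1a3 (0.90), Ttc27 (0.84), Fos (0.68) and Msx1 (0.56). Msx1 lost the call with litter as a block (adjusted p = 0.0629). Fos and Pgr had passed in neither direction after BPA, so their differences do not rest on a called change there.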

How the results depend on the processing

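Of 359 named genes, 313 kept their call for the E2 response after BPA in every alternative run and 253 kept it for the difference of responses. Changes of at least 2-fold numbered 67 higher and 195 lower without background correction, and 66 higher and 189 lower in the authors' processed values, against 179 higher and 447 lower. Leaving out 1 array at a time gave 1806 to 2037 units higher, 1817 to 1931 lower, 1794 to 2237 differences, and 172 to 181 higher and 434 to 452 lower by at least 2-fold. With litter as a block 1961 were higher, 1929 lower and 1739 differences were called, and the calls of Wnt4 and Ovgp1 were among those lost. In the 6 arrays alone 2428 were higher and 2198 lower. Igf1 changed direction there (0.28), where another probe stood for it. The difference of responses changed direction without background correction and in the processed values for Pla2g2e (0.23 and 0.21), Rnf186 (0.15 and 0.12) and Sprr2d (0.0715 and 0.11). The cause was not tested for any of these shifts. Calls were higher for 52.7% in the main setting and 45.6% with cyclic loess. Small changes of dim genes are limited by signal over background.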

Other observations

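The largest rises belonged to probes without a symbol. ILMN_1218006 read 9.51, 9.46 and 9.58 on the BPA-E2 arrays, against 5.00, 5.12 and 5.05 on the BPA-vehicle arrays (log2 change 4.46), while its change after DMSO in utero was -1.97. ILMN_1251451 read 9.44, 9.42 and 9.52 on the BPA-E2 arrays and 5.40, 5.62 and 5.42 on the BPA-vehicle arrays (3.98). Every E2 pool lay far above every vehicle pool for both probes, and their genes are not named here.

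Mzb1 and Pou2af1 were chosen after their values were seen. Mzb1, a chaperone of plasma cells, read 6.98, 7.14 and 7.08 on the BPA-E2 arrays and 5.02, 5.60 and 6.02 on the BPA-vehicle arrays (1.52 ± 0.22, limma adjusted p = 0.001). Pou2af1, a B cell coactivator, read 5.80, 5.43 and 5.35 on the BPA-E2 arrays and 4.37, 4.86 and 4.71 on the BPA-vehicle arrays, and was at least 1.38-fold higher (limma adjusted p = 0.011). The lymphocyte list had 2 of 11 members higher, both calls lost when single arrays were left out, with log2 changes between -0.59 and 0.63. Its summed level overlapped between the groups, at 2170 to 2280 on the BPA-E2 arrays and 1993 to 2246 on the BPA-vehicle arrays.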
